A study of Homo sapiens with 3 samples.

Results

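FOXA2 binding was examined at 10 genes of dietary lipid absorption and chylomicron assembly: APOB, MTTP, FABP1, FABP2, NPC1L1, ABCG5, ABCG8, MOGAT2, DGAT2 and CD36. The genes were chosen by name, with earlier results of these data known, and no score entered the rule. Each was taken with 50 kb on either side on the genome build hg19, and a peak was counted when its midpoint lay inside. ABCG5 with ABCG8 and MOGAT2 with DGAT2 are neighbours and shared an interval, so the genes made up 8 intervals of 1172 kb in all. They held 58 of the 63949 peaks of replicate 1 and 27 of the 26907 peaks of replicate 2. A site is called shared where a replicate 1 peak overlapped a replicate 2 peak by at least 1 bp. The intervals held 25 of the 24345 shared sites of the genome.

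The study mapped FOXA2 by chromatin immunoprecipitation and sequencing in Caco2, an established human colorectal adenocarcinoma line that is widely used as a model of the absorptive intestinal cell. It held 3 libraries from cells grown in low-glucose medium with serum, with no treatment named: 2 replicate immunoprecipitations with a Santa Cruz antibody against FOXA2 and 1 input without antibody, against which the authors called peaks. There is a single cell line and condition, so the comparisons are between sites and between replicates, and no other group was measured. Replicate 1 held 26183147 tags and replicate 2 held 15756702. Nothing in the labels ties the replicates to separate cultures, so the spread between them may be technical. The strength of a peak is the authors' own score, read here as the tags in the peak per 10000000 tags of its library. The median peak scored 8 in replicate 1 and 11 in replicate 2. Peak lists hold no expression, so whether the cells carried markers of absorptive cells, and whether the 10 genes were expressed, was not tested.

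Absorptive cells of the small intestine take up fatty acids and monoacylglycerol, rebuild them into triglyceride in the endoplasmic reticulum, and load the triglyceride onto apolipoprotein B to form chylomicrons, which leave for the lymph. CD36 is a fatty acid receptor and transporter of the cell surface. FABP1 and FABP2, the liver and intestinal fatty acid binding proteins, carry fatty acids inside the cell. MOGAT2 and DGAT2 are acyltransferases of triglyceride synthesis, and MTTP transfers the lipid to APOB, the scaffold of the particle. NPC1L1 takes up cholesterol from the gut lumen, and the half-transporters ABCG5 and ABCG8 pair to pump sterols back into it. FOXA2 is a forkhead factor of endoderm-derived tissues that can bind its site in compacted chromatin.

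These 3 stretches of promoter sequence are shown because they represent the contrast described next: FABP1 had a strong shared site at its start, its relative FABP2 had no peak within 20 kb of its start, and MTTP had no shared site at all. Each runs 5′ to 3′ along the gene and covers the 250 bases before a RefSeq start on the GRCh38.p14 build, which is not the build of the peaks. Capitals mark the forkhead word TGTTTNC or TATTTAC on either strand. The FABP1 stretch lies at chr2:88128063-88128312 on the reverse strand, that of FABP2 at chr4:119322139-119322388 on the reverse strand, and that of MTTP, for the first of its 2 starts in the table, at chr4:99563880-99564129 on the forward strand.
FABP1: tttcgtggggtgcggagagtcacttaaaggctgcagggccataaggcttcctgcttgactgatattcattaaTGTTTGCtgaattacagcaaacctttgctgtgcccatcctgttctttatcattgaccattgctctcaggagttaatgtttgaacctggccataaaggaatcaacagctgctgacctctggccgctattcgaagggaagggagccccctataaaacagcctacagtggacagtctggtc
FABP2: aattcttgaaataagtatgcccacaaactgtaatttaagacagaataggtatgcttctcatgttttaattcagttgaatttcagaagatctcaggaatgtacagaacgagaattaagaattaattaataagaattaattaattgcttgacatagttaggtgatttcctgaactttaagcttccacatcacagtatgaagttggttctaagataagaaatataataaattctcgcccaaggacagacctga
MTTP: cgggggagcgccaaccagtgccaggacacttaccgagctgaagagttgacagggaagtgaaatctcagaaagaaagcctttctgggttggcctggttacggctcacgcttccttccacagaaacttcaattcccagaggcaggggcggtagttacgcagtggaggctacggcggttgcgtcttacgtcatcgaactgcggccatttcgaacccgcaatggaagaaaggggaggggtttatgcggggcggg
The FABP1 stretch held the word TGTTTGC from 178 to 172 bases before the start, and the CDX word CCATAAA from 90 to 84 bases before it. The FABP2 and MTTP stretches shown held no forkhead word. Of the 10 genes, 7 had entries in the RefSeq table, with 13 starts between them; APOB, MOGAT2 and DGAT2 had none. A forkhead word stood before 6 of the 13 starts, which belong to MTTP (the second start), FABP1, ABCG5 and CD36 (3 starts). The windows of the last 2 CD36 starts overlap and share the word GAAAACA, the only one of the last start, so these starts are not separate cases. The windows of the 2 CD36 starts before these also overlap, as do those of ABCG5 and ABCG8, so the 13 are not independent. A forkhead word stood before 17.3% of all 35116 promoters in the table. The stricter pair TGTTTAC or TATTTAC, which was the one planned for the peaks, stood before 1 of the 13, a CD36 start, and before 5.27% of all. None of the printed stretches held it. The CDX words CAATAAA or CCATAAA stood before 1 of the 13, that of FABP1, and before 5.81% of all. Neither the HNF4 word CAAAGTCCA nor the palindromic HNF1 word was found in the 13, against 0.325% and 0.0484% of all. A word is only a match of letters in this window and was not set against the peaks, whose own sequence was not read.

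Positions relative to a gene are given from the edges of the intervals, which are rounded to 1 kb, so a distance can be off by 0.5 kb. FOXA2 sites differed widely between the members. The intervals of APOB, FABP1 and the MOGAT2 and DGAT2 pair held 15 of the 25 shared sites, and with them every site that scored at least 50 in both replicates. They covered 143, 106 and 184 kb of the 1172 kb, and were grouped after their values were seen. At the other extreme, MTTP had none.

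**Figure D1:**
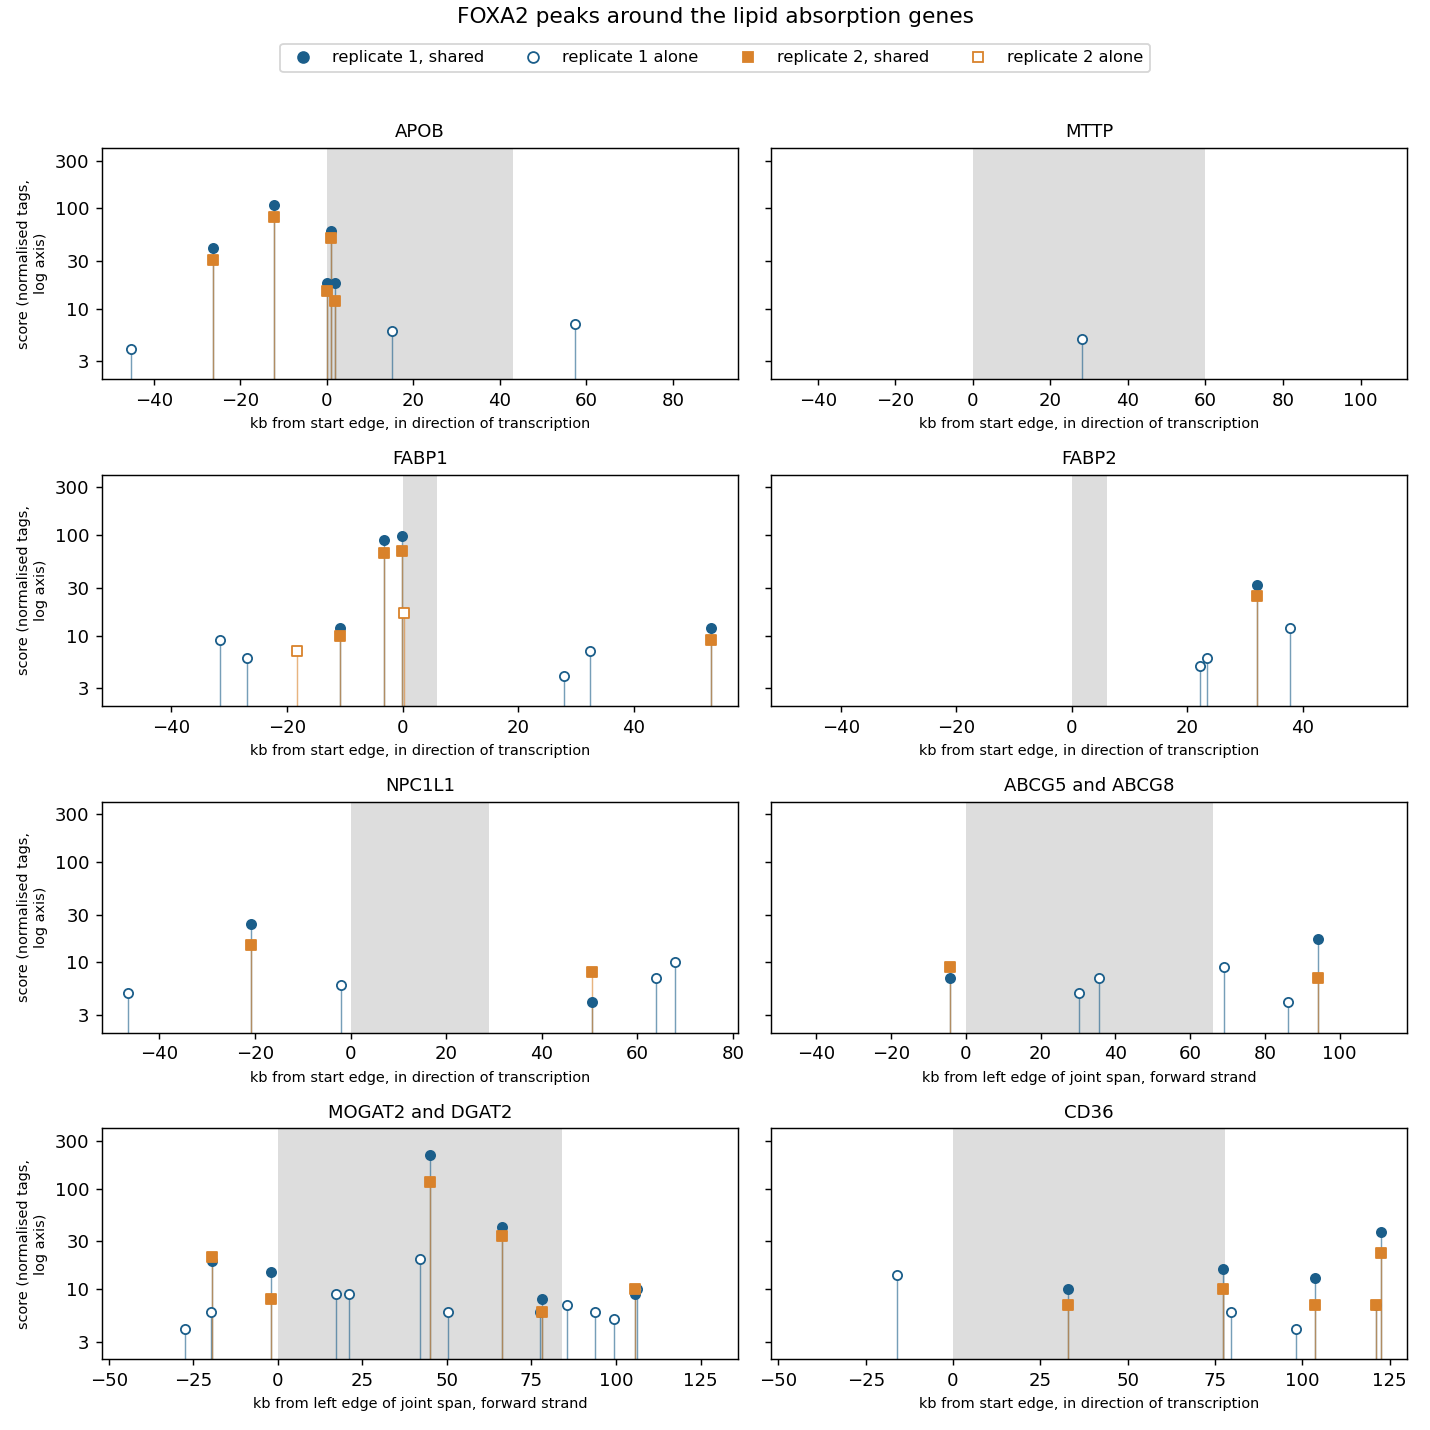
Score of every FOXA2 peak (log axis, normalised tags per 10000000) against its distance in kb from the start edge of the gene, or from the left edge of the joint span for the 2 pairs; grey marks the gene span, filled symbols shared sites and open symbols peaks of 1 replicate. Strong shared sites stand at and upstream of the starts of APOB and FABP1 and inside the MOGAT2 and DGAT2 span, and the MTTP panel holds a single open symbol.

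APOB, on chromosome 2, had FOXA2 sites at its start and in a series upstream of it. The strongest lay 12.3 kb upstream, at 21279285 to 21279407, and scored 108 in replicate 1 and 82 in replicate 2, or 95 ± 18.4 (mean ± SD, n = 2). It ranked 414 among the 24345 shared sites. A site 1 kb inside the gene, at 21265937 to 21266059, scored 60 and 51, or 55.5 ± 6.36 (n = 2). Another, 26.4 kb upstream at 21293313 to 21293435, scored 40 and 31, or 35.5 ± 6.36 (n = 2). The ranges of the replicates did not overlap between any of these 3 sites, so their order held in both libraries. The site inside the gene stood between weaker neighbours. The one at the start edge itself, at 21266990 to 21267112, scored 18 and 15, and the one 1.9 kb inside the gene, at 21265053 to 21265175, scored 18 and 12. The 3 sites near the start were spaced by 884 bp and 1053 bp, which is well above the closest spacing either list allows (244 bp and 300 bp). The rest of the APOB interval held only 3 peaks of replicate 1 alone, with scores of 4 to 7, and nothing in replicate 2. Downstream of the first 2 kb, then, no shared site was found in the gene or its 3′ flank.

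MTTP, the transfer protein that works on APOB, stood apart from it. Its interval on chromosome 4 held 1 peak of replicate 1, inside the gene at 100513036 to 100513158, with a score of 5, and none of replicate 2. In replicate 1, 91.8% of all peaks scored 5 or more, so this peak is among the weakest called. The nearest shared sites lay 127.1 kb upstream of the gene, with scores of 10 and 8, and 485.7 kb beyond its far edge, with 5 and 7. The stretch between them was 673 kb, and the median gap between neighbouring shared sites was 38.8 kb. This gap was picked because it holds an interval of 160 kb without a shared site, so it had to exceed that median. Gaps of 673 kb or more made up 2.86% of all, counted by number and not by the length they cover. An interval of this width without a shared site is common, however: of 13862 windows of 160 kb laid end to end over the chromosomes and holding a peak of either replicate, 30.4% had none.

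The fatty acid binding proteins differed from each other in the same way. FABP1, on chromosome 2, had a pair of strong sites at and just upstream of its start. The first, at 88428008 to 88428130, fell within 1 kb of the start edge and scored 98 and 70, or 84 ± 19.8 (n = 2). The second lay 3.2 kb upstream, at 88431190 to 88431312, with 89 and 67, or 78 ± 15.6 (n = 2). Their ranges overlapped, although the first was higher in each library, and 2 libraries do not settle whether the sites differ. They ranked 593 and 706 among all shared sites, within the top 2.44% and 2.9%. The centres called in the 2 replicates lay 2 bp apart at the first and 1 bp apart at the second. A weaker shared site 10.9 kb upstream scored 12 and 10, and another 53.3 kb from the start on the downstream side scored 12 and 9. FABP1 was also the only member with peaks of replicate 2 alone, and both were singled out after their values were seen. The peak at 88427609 to 88427759 scored 17 and was 385 bp from the strong site at the start, on its gene side. The other, at 88446213 to 88446363, scored 7. The rounding of the interval edge does not allow the strong site at the start and the replicate 2 peak beside it to be placed within or outside the printed 250 bases of FABP1.

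FABP2, on chromosome 4, had 1 shared site, 32.1 kb from its start on the downstream side, at 120211885 to 120212007. It scored 32 and 25, or 28.5 ± 4.95 (n = 2), which is below both FABP1 sites in each replicate and without overlap. The other 3 peaks of the FABP2 interval were found in replicate 1 alone, all on the same side and at scores of 5, 6 and 12. Neither the gene itself nor the 50 kb upstream of it held a peak in either list. The nearest protein-coding genes in RefSeq order are ARLN and PDE5A, and a site in a flank cannot be assigned to a gene from its position.

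The strongest FOXA2 site of all the members lay in the span that holds the triglyceride synthesis genes MOGAT2 and DGAT2, on chromosome 11. It stood at 75474030 to 75474152, 45.1 kb from the MOGAT2 edge of a span of 84 kb. It scored 215 in replicate 1 and 116 in replicate 2, or 165.5 ± 70 (n = 2), 26.9 and 10.5 times the respective list's median. It ranked 99 among all shared sites, within the top 0.407%. Both values exceeded those of every other site in the 8 intervals. The replicates disagreed on its height more than at most strong sites: its log2 ratio of replicate 1 to replicate 2 was 0.89, against a median of 0.22 and an SD of 0.31 over the 267 shared sites with scores of 100 or more in both lists. Only 2 of those, this site included, had a ratio as high. Its centre was called 1 bp apart in the 2 lists. The boundary between the genes is not given by the interval, so the site is not assigned to either.

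The same span held a second site at 75495171 to 75495293, with 42 and 34, or 38 ± 5.66 (n = 2), and a weak one with 8 and 6. In the flank on the MOGAT2 side, a site 19.5 kb from the edge at 75409464 to 75409586 scored 19 and 21, and one 2.1 kb from the edge at 75426815 to 75426937 scored 15 and 8. The flank on the DGAT2 side held 1 shared site, with 9 and 10. The MOGAT2 and DGAT2 interval was the widest, at 184 kb, and over the whole list only 38.1% of replicate 1 peaks were shared. Of the 17 replicate 1 peaks here, 11 were found in replicate 1 alone, with scores of 4 to 20. There were 33 such peaks over all intervals. The highest of them, at 75470879 to 75471001, scored 20 and lay 3.15 kb from the nearest replicate 2 peak, the strongest site. It was the only peak of a single replicate to score at least 20 in any interval.

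**Figure D2:**
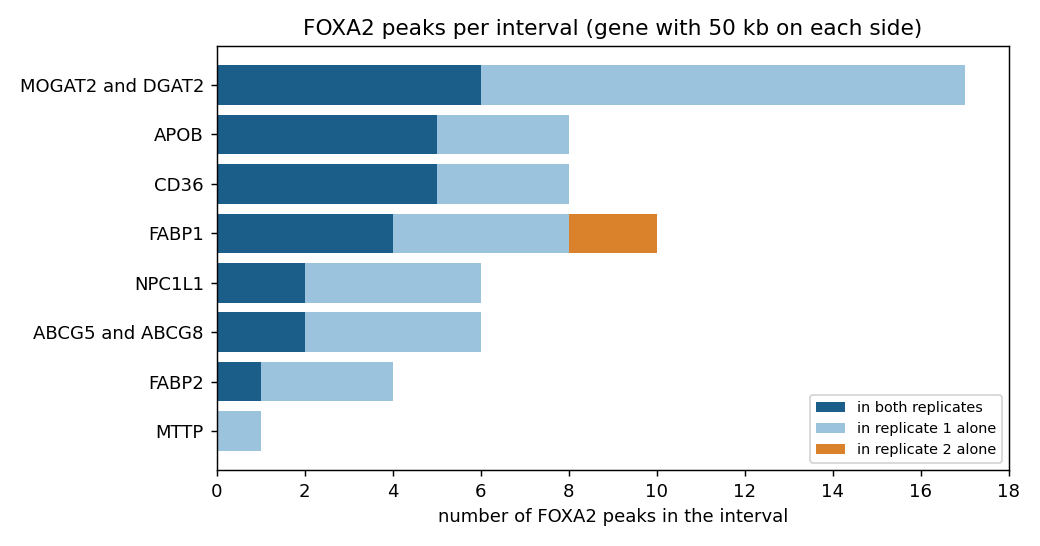
Number of FOXA2 peaks in each interval, split into those found in both replicates, in replicate 1 alone and in replicate 2 alone. The MOGAT2 and DGAT2 interval has 6 shared sites, APOB and CD36 have 5 each, and MTTP has a single peak of replicate 1.

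CD36, on chromosome 7, had as many shared sites as APOB, but weaker ones and none near its start edge. The strongest lay in the downstream flank, 122.6 kb from the start edge at 80353570 to 80353692, and scored 37 and 23, or 30 ± 9.9 (n = 2). A site at the far end of the gene span, at 80308198 to 80308320, scored 16 and 10, and one 103.6 kb from the start edge, at 80334582 to 80334704, scored 13 and 7. The remaining shared sites, one inside the gene 33 kb from the edge and one 1.44 kb from the strongest, scored 10 and 7, and 7 and 7. Upstream of the edge, the only peak was one of replicate 1 alone with a score of 14. RefSeq lists 6 starts for CD36, and the distances here run from the edge of the interval rule alone.

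The sterol transporters had few and mostly weak sites. NPC1L1, on chromosome 7, had a shared site 20.8 kb upstream of its start edge, at 44601772 to 44601894, with 24 and 15, or 19.5 ± 6.36 (n = 2). Its other shared site, 50.5 kb from the start on the downstream side, scored 4 and 8, and the centres called there lay 117 bp apart, the widest of the 25. Nearer the start, 2.1 kb upstream, there was a peak of replicate 1 alone with a score of 6. The ABCG5 and ABCG8 pair, divergent genes on chromosome 2, had no shared site inside their joint span of 66 kb. The shared sites in its flanks scored 17 and 7 on the ABCG8 side, at 44134015 to 44134137, and 7 and 9 on the ABCG5 side, at 44035601 to 44035723. Their ranges overlapped, and each replicate put them in a different order. Inside the span were 2 peaks of replicate 1 alone, with scores of 5 and 7.

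Set against the genome, the members held sites of ordinary median strength and a larger share of strong ones. The median of the mean scores was 15 over the 25 shared sites (interquartile range 10 to 35.5) and 14.5 over all 24345 (9.5 to 24.5). Of the 25, 9 scored at least 20 in both replicates, or 36%, where 25.8% of all shared sites did so. At least 50 in both was reached by 5, or 20%, against 5.88% of all, and at least 100 in both by 1, or 4%, against 1.1%. The 5 sites come from 3 intervals, with 2 each at APOB and FABP1, and so are not independent of each other. They carried 60.1% of the summed mean score of the 25 sites.

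**Figure D3:**
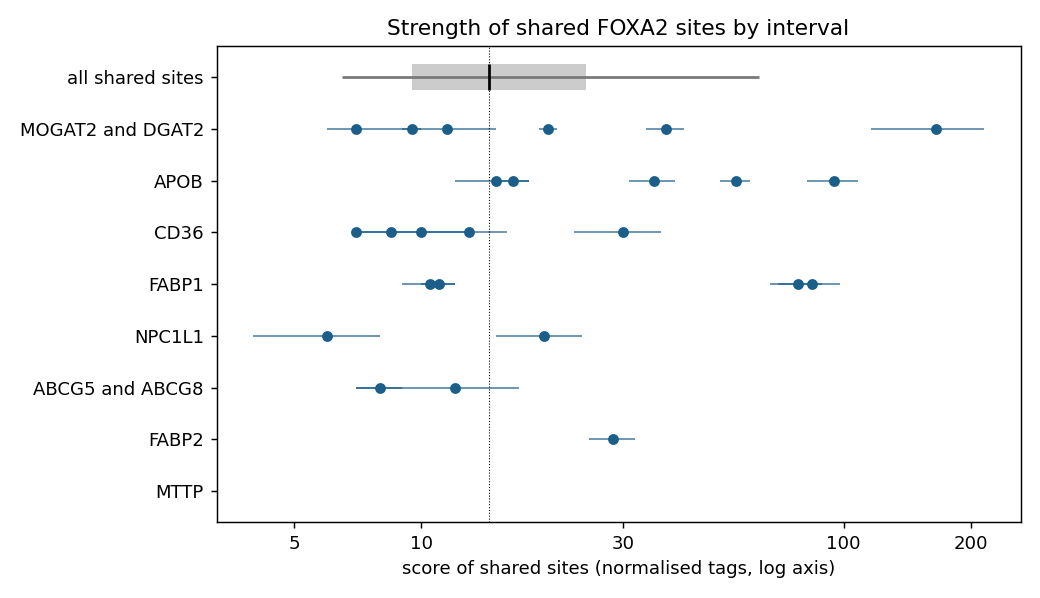
Mean score of each shared site (points, log axis, normalised tags) with lines from the lower to the higher replicate, by interval; the grey box is the interquartile range of all shared sites, its line runs from the 5th to the 95th percentile, and the dotted line is their median of 14.5. The sites of APOB all lie above that median, while most of those of CD36 and both of ABCG5 and ABCG8 lie below it.

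The density of shared sites was 2.13 per 100 kb over the intervals, against a mean of 1.26 and a median of 1 (interquartile range 0 to 2) in 19308 windows of 100 kb that held a peak of either replicate. It ranged from 0 at MTTP and 0.943 at FABP2 to 3.5 at APOB and 3.77 at FABP1. Beside windows of its own width, FABP1 with 4 shared sites was matched or exceeded by 9.22% of windows, APOB with 5 by 8.01%, the MOGAT2 and DGAT2 pair with 6 by 7.69% and CD36 with 5 by 11.4%. Counts as high as those of NPC1L1, ABCG5 with ABCG8 and FABP2 were found in 36.4%, 42.2% and 63.2% of windows. Windows with a site at least as strong as the interval's best made up 0.634% for the MOGAT2 and DGAT2 pair, 2.84% for APOB and 3.08% for FABP1, but 20% for FABP2, 24.7% for CD36, 33.7% for NPC1L1 and 53.9% for ABCG5 with ABCG8.

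Shared sites were about as dense in the gene spans as in the flanks. Among the 6 genes with an interval of their own, those near the start edges belonged to APOB and FABP1. The gene spans, 372 kb together, held 7 shared sites, or 1.88 per 100 kb, with a median mean score of 15. For the pairs the span includes any DNA between the genes, and 3 of the 7 lay in the joint span of MOGAT2 and DGAT2. The flanks held 18, or 2.25 per 100 kb, with a median of 14.25. For the 6 genes with an interval of their own, 7 sites lay in the upstream flanks with a median of 35.5 and 6 in the downstream flanks with a median of 10.25. The sites at the start edges of APOB and FABP1 were counted as upstream flank. Both lie closer to the edge than its rounding of 0.5 kb, so they could fall in the gene spans. The order of gene spans and flanks in density is therefore not settled. Within 5 kb of the 6 start edges lay 5 shared sites, or 8.33 per 100 kb against 2.13 over the intervals, with a median of 55.5. The density near the starts of all genes was not measured, since no hg19 gene table was used. These 5 are sites of APOB and FABP1, and the other 4 genes had none so near their start edges. RefSeq lists 2 starts for MTTP and 6 for CD36. Only the edge of the interval rule was used for each, so sites near their other starts were not counted. In the upstream flanks, all but 1 of the 7 sites also belong to APOB or FABP1, so the difference between the flanks rests on these genes. Another shared site within 10 kb was found for 8 of the 25, or 32%, against 39% of all shared sites.

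The replicates called nearly the same places at the stronger sites. Of the replicate 2 peaks in the intervals, 25 of 27 were shared, or 92.6% (95% Wilson interval 76.6% to 97.9%, counting error only), close to the 90.5% of the whole list. Of the replicate 1 peaks 25 of 58 were shared, or 43.1% (31.2% to 55.9%), against 38.1%. The 33 peaks of replicate 1 alone had a median score of 6, equal to that of all such peaks, and 28 of them scored under 10. Depth differed between the libraries, and the absence of a weak replicate 1 peak from replicate 2 does not show that FOXA2 was absent there. Scores were higher in replicate 1 at 20 of the 25 shared sites, or 80%, where 63.7% of all shared sites were higher in it. The median log2 ratio of replicate 1 to replicate 2 was 0.41 in the intervals, with an SD of 0.46 over sites, against 0.26 and 0.62 over all. In order of strength, the 7 best sites ranked alike in both replicates: the MOGAT2 and DGAT2 site, APOB upstream, the FABP1 pair, APOB inside the gene, the second MOGAT2 and DGAT2 site and the far APOB site. The ranges of some neighbours among these 7 overlapped even so, as in the FABP1 pair. Below these 7 sites neighbours in the order mostly overlapped, as at CD36 (37 and 23) and FABP2 (32 and 25).

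**Figure D4:**
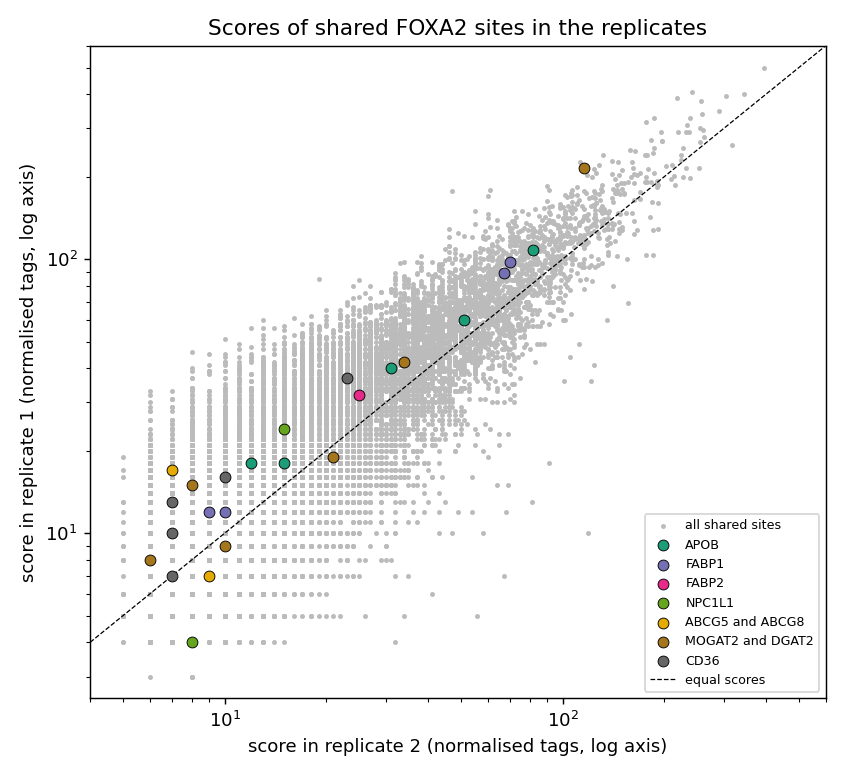
Score in replicate 1 against score in replicate 2 (both log axes, normalised tags) for all 24345 shared sites in grey and the 25 sites of the members in colour; the dashed line marks equal scores. Most members lie above the line, and the MOGAT2 and DGAT2 site at 215 and 116 stands highest.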

How the data were processed

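FOXA2 ChIP-seq peak lists of 2 replicates from Caco2 cells were used; the input had no list of its own and entered through the authors' calls. Per the submitters' processing notes, the build was hg19 and the tools named were Bowtie 1.0.0 and HOMER 1.2. Per the file headers, the authors ran findPeaks in factor style on each replicate separately, with at least 4-fold over input and over the local 10000 bp, a Poisson p of 0.0001 for each, and a false discovery rate of 0.001. The deposited score is a whole number without a column name. Multiplied back by depth, its sum lay 0.45% and 0.196% above the tags in peaks of the headers, so it was read as tags per 10000000. Each unit of score equals 2.62 tags (replicate 1) or 1.58 tags (replicate 2). Peaks were 123 bp and 151 bp wide.

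The intervals, 1-based coordinates and overlaps were computed with Python 3.11.15, numpy 2.4.6, pandas 2.3.3 and scipy 1.17.1. The overlap step was run on copies of replicate 1 peaks moved by small shifts. Each copy had to overlap its source, so this tests the code and not the replicates. With 1 condition no contrast exists and no p-value is given. Windows hold a peak of either list on chromosomes 1 to 22 and X. Named sites are the 3 best by mean rank in each interval, shared sites within 5 kb of a start edge, and peaks of 1 replicate with scores of at least 20; any other site named was chosen after its values were seen. Members and lists were chosen with earlier results of these data known. Sequences come from RefSeq on GRCh38.p14, and the strand of APOB is textbook knowledge. Forkhead words under the peaks, and other genes of the pathway, were planned but not analysed here, since no hg19 sequence or gene table was used.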

Additional observations from a re-analysis of the deposited data

How the results depend on the processing

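Of 24 alternatives of the main values, 19 kept them within their limits. A score of at least 10 in each list left 15 shared sites, raised the share of replicate 1 peaks found in both to 60% (59% over the genome) and the median mean score to 30 (21 over the genome); fewer peaks remain by construction. A flank of 20 kb also left 15 sites, at 2.17 per 100 kb, and a flank of 100 kb gave 33, at 1.67 per 100 kb. Counting all peaks of the list that remains, the density was 2.3 per 100 kb without replicate 1 and 4.95 without replicate 2. The genome means were 1.39 and 3.31 per window. The median score was taken over the 25 shared sites in the list that remains, and was 12 and 18. These medians, counted among the 19 kept, still need both lists to call a site shared. With a reciprocal overlap of 50% there were 23 shared sites, with midpoints within 500 bp 28. By interval, 23 of 32 alternatives stayed within 1.5 times; the other 9 were the 8 counts from replicate 1 alone (MTTP 1, MOGAT2 and DGAT2 17) and NPC1L1, which kept 1 site under reciprocal overlap. MTTP had 0 shared sites under every overlap limit run by interval. Depth limits the weak peaks: a score of 5 stands for few tags in either list. The windows as wide as each interval were added after seeing the data. The forkhead motif alternatives were not run. No paired analysis was possible because the result comes from no test between groups.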
